A study of Mus musculus with 12 samples.

Results

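The genes described here belong to the cAMP pathway and the immediate early response, and they number 51 of the 55487 genes listed for cochlear glial cells of the mouse. They were chosen by gene name and role, with no measured value in the rule but with earlier results of these data known. They comprise adenylyl cyclases, cAMP phosphodiesterases, protein kinase A subunits, the Epac exchange factors, CREB factors with their coactivators, and immediate early and other cAMP-responsive genes. Expression was high enough for a test in 46 of the 51, and too low in Egr4, Npas4, Nr4a3, Pck1 and Pde4c.

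Expression was measured by RNA-seq of polyadenylated RNA in 12 libraries, labelled as 3 biological replicates in each of 4 groups. Spheres were grown from the modiolus of postnatal day 4 mice of both sexes on a mixed C57Bl6 and FVB/N background, in DMEM/F12 with EGF at 20 ng/ml, bFGF at 10 ng/ml, and IGF and heparan sulfate at 50 ng/ml. Cells from such spheres were then differentiated for 14 days in SCDM, in SCDM/FGF or in FIBCL. SCDM was DMEM/F12 with 50 ng/ml each of the neurotrophins BDNF and NT3, and SCDM/FGF held bFGF at 100 ng/ml besides. FIBCL was Neurobasal with Forskolin at 20 μM, ISX9 at 20 μM, I-BET at 1 μM, CHIR99021 at 10 μM, LIF at 1000 U/ml and bFGF, which the labels list at both 50 and 100 ng/ml, and they list no BDNF or NT3 for it. B27 and N2 supplements were present in all 4 groups. Base medium, growth factors and small molecules thus changed at once between FIBCL and its controls, and the effect of Forskolin cannot be told apart from that of the rest. The FIBCL columns of the deposited table are headed FIBC, a name the study also gives to the mixture without LIF. Modioli of several mice went into a preparation, and the labels do not say whether libraries of different groups came from the same preparation.

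Forskolin activates most membrane adenylyl cyclases directly, so that cAMP rises without a receptor signal. cAMP binds the regulatory subunits of protein kinase A and frees its catalytic subunits, which phosphorylate CREB, and it also opens the Epac proteins, which load the small G protein Rap. Phosphorylated CREB, helped by its CRTC coactivators, binds the cAMP response element (CRE) in promoters of genes such as Fos, Nr4a1, Crem and Dusp1, many of which respond within minutes to an hour and then shut themselves off through unstable mRNAs, phosphodiesterases, Dusp phosphatases and the Crem repressor ICER. Part of the medium was exchanged every 2 to 3 days, and the time from the last exchange to the RNA is not given in the sources used here.

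The CRE is the sequence through which the pathway meets its targets, and 41 of the 51 genes matched a RefSeq promoter window on GRCm38.p6, from 250 bases before to 50 bases after a start site. The windows of Adcy6, Adcy8, Arc, Crem, Crtc2, Egr1, Egr3, Fosl1, Ier2 and Sik1 were not matched. The windows were searched on both strands for the full CRE (TGACGTCA), for its 5-base core (TGACG, which the full CRE holds on both strands), for the AP-1 site (TGANTCA) and for the CArG box bound by serum response factor. The stretches below carry matches in some of the genes whose levels differed between the groups, chosen to show both directions. They are written 5′ to 3′ on the strand of the gene, with CRE matches in capitals, and CGTCA is the core read on the opposite strand.

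Dusp1, full CRE, chr17:26508588-26508635, minus strand: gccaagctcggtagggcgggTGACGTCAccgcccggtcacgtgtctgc
Fos, CRE core, chr12:85473804-85473848, plus strand: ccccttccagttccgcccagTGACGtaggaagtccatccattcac
Fosb, CRE core, chr7:19310081-19310125, minus strand: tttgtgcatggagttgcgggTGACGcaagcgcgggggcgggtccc
Nr4a1, CRE core in 2 places, chr15:101266757-101266830, plus strand: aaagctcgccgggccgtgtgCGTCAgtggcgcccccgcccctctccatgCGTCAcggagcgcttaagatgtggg
Homer1, CRE core in 3 places, chr13:93303681-93303756, plus strand: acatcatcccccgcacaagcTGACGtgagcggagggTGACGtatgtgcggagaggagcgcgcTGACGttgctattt
Ppargc1a, CRE core, chr5:51567750-51567794, minus strand: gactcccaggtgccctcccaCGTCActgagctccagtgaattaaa
Prkar1b, CRE core, chr5:139150026-139150070, minus strand: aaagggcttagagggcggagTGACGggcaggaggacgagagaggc
Adcy7, AP-1 site in capitals, chr8:88289022-88289065, plus strand: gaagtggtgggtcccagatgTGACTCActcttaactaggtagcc

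The core was found in 24 of the 41 genes (58.5%), against 34.1% of the 11411 tested genes with a window and 23.0% of all 27025 genes with one. The 41 were chosen by role, known cAMP and CREB targets among them, so these shares are not a test. Egr4, Npas4, Nr4a3 and Pck1, which were too low for a test, are among the 24, and a gene with several windows counted if any matched. The full CRE was found in 2 of the 41, Dusp1 and Prkar1a (4.88%), against 3.44% and 2.03%. The AP-1 site was found in Adcy3 and Adcy7 (4.88%), against 6.32% and 8.97%, and the CArG box in 0 of the 41, against 1.54% and 1.81%. The 41 leave out Egr1, Egr3, Arc and Ier2, and sites beyond the windows were not searched, so the genes may hold such boxes elsewhere. Genes with a core went in either direction: Dusp1, Homer1, Ppargc1a and Prkar1b were higher in FIBCL than in SCDM, while Fos, Fosb, Nr4a1, Atf1, Rapgef3 and Adcy7 were lower. A match describes these windows and does not show that a site is used.

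Levels are given below as TPM (a read share corrected for gene length), rescaled between libraries and listed in the order of replicates 1, 2 and 3. A change is a log2 fold change of scaled TPM + 1 with its standard error, tested in limma and adjusted by Benjamini-Hochberg over the 16016 genes that reached 1 TPM in 3 libraries or more. A gene "rose" or "fell" at an adjusted p under 0.05. FIBCL differed from SCDM in 38 of the 46 tested genes, where 71.7% of all tested genes differed. Of the 46, 24 rose and 14 fell, where 32.7% and 39.0% of all genes did. At least a 2-fold change was seen in 17 genes, or 37.0% against 29.3% of all genes, with 11 up and 6 down where 13.2% and 16.2% of all genes were. The libraries of FIBCL and SCDM did not overlap in 39 of the 46 genes, where they did not in 74.7% of all genes. The median change over the 46 genes was 0.23, against −0.07 over all genes. In these bulk samples, fewer cells of a type and less RNA per cell cannot be told apart.

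FIBCL against SCDM/FGF gave 18 genes that rose and 17 that fell, where 32.5% and 38.2% of all genes did and 70.7% differed. At least 2-fold, 9 rose and 9 fell, where 12.0% and 15.8% of all genes did (39.1% against 27.8% in either direction). The libraries did not overlap in 37, where they did not in 72.9% of all genes. FIBCL shared its libraries between these comparisons, so their results are not independent. Dusp1, Ier3, Crem, Prkar1b, Rapgef4, Homer1 and Jund rose at least 2-fold against both control media, and Fos, Egr3, Nr4a1, Rapgef3 and Atf1 fell at least 2-fold against both. The counts of genes that rose also hold Adcy1, which had to differ because it could be tested only through its FIBCL libraries. The rescaling matters for the smaller changes. With the TPM as deposited, the split of genes that rose and fell was 15 and 21 against SCDM and 9 and 23 against SCDM/FGF, while the median of all genes was at −0.40 and −0.31. At least 2-fold, 8 rose and 7 fell against SCDM and 6 rose and 11 fell against SCDM/FGF. The shares of all genes called in that setting are not given here, so these splits cannot be read as particular to the members. Other changes against SCDM stayed called but moved by over 1.5 times. Egr1, Junb and Fosl1 were then at 0.22, 0.28 and 0.55, and Per1, Pde4b, Creb1, Adcy6, Fosl2, Prkacb and Crtc3 were at −0.63, −0.71, −0.78, −0.84, −0.64, −0.865 and −1.035. The changes of at least 2-fold kept an adjusted p under 0.05 in each of the 22 alternatives computed for both comparisons.

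**Figure D1:**
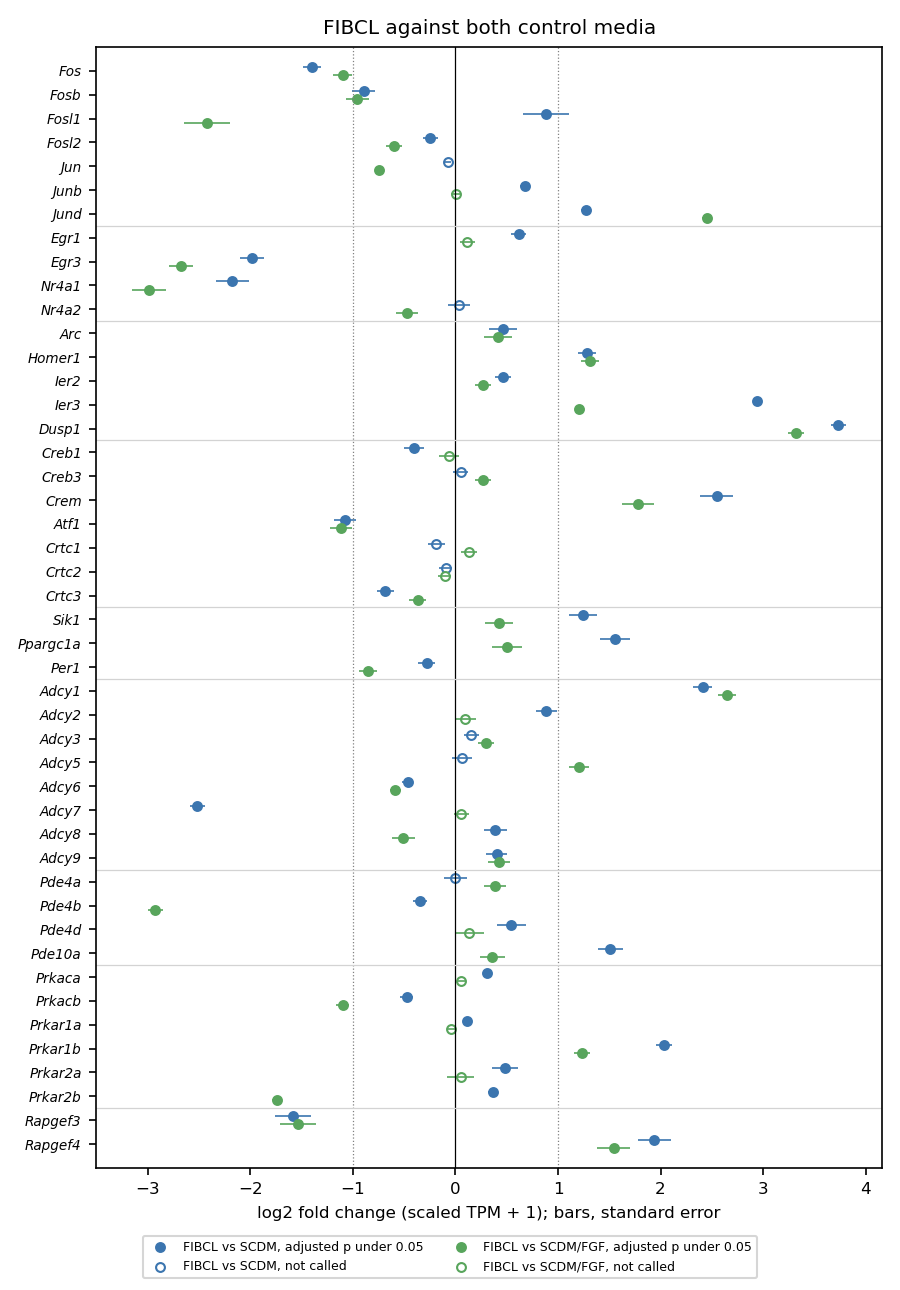
Log2 fold changes of scaled TPM + 1 (x axis) of the 46 tested genes in FIBCL against SCDM (blue) and against SCDM/FGF (green), ordered by role and separated by grey lines. Bars are standard errors, filled points have an adjusted p under 0.05 and dotted lines mark −1 and 1. Dusp1 stands farthest to the right, at 3.73 and 3.32, and Nr4a1 farthest to the left against SCDM/FGF, at −2.99.

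The 8 adenylyl cyclases, which make cAMP, were each tested, and the leading gene was not the same in every group. Against SCDM, 4 rose in FIBCL, 2 fell and 2 were not called. Adcy1, a calcium-stimulated cyclase best known from neurons, was measured at 0.695, 0.594 and 0.714 in spheres, 0.505, 0.514 and 0.576 in SCDM, 0.284, 0.343 and 0.264 in SCDM/FGF, and 7.14, 7.59 and 6.70 in FIBCL. It was near or below 1 TPM in the 9 other libraries and above them in each FIBCL library. FIBCL exceeded SCDM by 2.41 and SCDM/FGF by 2.65. Adcy1 reached the level needed for a test through its FIBCL libraries alone and so had to differ, and no p is given for it.

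Adcy7 was instead highest in SCDM. Its levels were 17.7, 14.6 and 16.8 in spheres, 105, 105 and 101 in SCDM, 18.1, 15.4 and 16.4 in SCDM/FGF, and 17.7, 17.3 and 16.8 in FIBCL. The 3 SCDM libraries lay far above the other 9, which overlapped one another across their groups. Adcy7 fell by 2.52 ± 0.07 (limma adjusted p = 7.57e-11) in FIBCL against SCDM, and SCDM/FGF was lower than SCDM by 2.57 ± 0.07 (limma adjusted p = 3.49e-10). Between FIBCL and SCDM/FGF the difference was 0.06 ± 0.07 (limma adjusted p = 0.52), which was not called, and it turned negative, to −0.24, and was called with the TPM as deposited. Adcy7 is also a cyclase of blood cells. The summed level of 10 macrophage markers was 1970 to 2200 in SCDM, 2160 to 2330 in SCDM/FGF, 157 to 200 in spheres and 176 to 205 in FIBCL. Between SCDM/FGF and SCDM, 3 of the 10 rose and 4 fell, with a median of −0.12. Adgre1 averaged 199 TPM in SCDM and 86.6 TPM in SCDM/FGF, and Aif1 averaged 37.8 and 15.3 TPM. C1qa, C1qb and C1qc went the other way. They were at 381 to 459, 291 to 338 and 301 to 376 TPM in SCDM. In SCDM/FGF they were at 524 to 568, 376 to 415 and 411 to 452 TPM. The summed level of 6 smooth muscle and pericyte markers was 342 to 422 in SCDM and 94.1 to 120 in SCDM/FGF. The part of these markers in the result was not tested.

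Adcy6, a cyclase inhibited by calcium, was measured at 40.1, 36.4 and 38.5 in spheres, 22.0, 22.7 and 21.5 in SCDM, 24.9, 24.5 and 23.0 in SCDM/FGF, and 16.3, 15.3 and 15.6 in FIBCL. It was highest in the spheres and lowest in FIBCL, with no overlap between FIBCL and any other group. Adcy6 fell by 0.47 ± 0.05 (limma adjusted p = 9.09e-06) in FIBCL against SCDM and fell by 1.24 ± 0.05 (limma adjusted p = 2.09e-09) against the spheres. Adcy5, its closest relative, was at 5.83, 4.54 and 5.42 in spheres, 9.79, 10.1 and 9.41 in SCDM, 4.06, 4.09 and 3.48 in SCDM/FGF, and 10.9, 9.52 and 10.2 in FIBCL. Adcy5 was alike in SCDM and FIBCL, where the ranges overlapped, and lower in SCDM/FGF and spheres. FIBCL exceeded SCDM/FGF by 1.21 ± 0.10 (limma adjusted p = 4.17e-07), and SCDM/FGF was lower than SCDM by 1.14 ± 0.10 (limma adjusted p = 2.04e-06).

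Adcy3 and Adcy6 overlap Cenpo and Gm29331 on the opposite strand, which averaged at most 7.31 TPM in any group. Of the other 4 cyclases, Adcy2 rose in FIBCL against SCDM by 0.89 ± 0.10 (limma adjusted p = 1.04e-05), or by 0.52 with the TPM as deposited. Adcy8 rose by 0.39 ± 0.11 (limma adjusted p = 0.00727) against SCDM but fell by 0.51 ± 0.11 (limma adjusted p = 0.00143) against SCDM/FGF, and SCDM was lower than the spheres by 1.12 ± 0.11 (limma adjusted p = 6.20e-06). Adcy9 rose by 0.40 ± 0.10 (limma adjusted p = 0.00464) against SCDM. Adcy3, with group ranges between 10.5 and 19.5 TPM, was not called against SCDM. The rises of Adcy8 and Adcy9 against SCDM were not called with the TPM as deposited. Within the summed TPM of the 8 cyclases, which does not depend on scaling, Adcy7 took 63.6% ± 0.92 (SD, n = 3) in SCDM and between 17.9% and 21.6% on average in the other groups. Adcy6 led in the spheres with 42.1% ± 1.2 and in SCDM/FGF with 31.4% ± 1.02, whereas FIBCL had no such lead, its highest shares being 20.2% ± 1.48 for Adcy3 and 19.7% ± 0.17 for Adcy7. Adcy1 took 0.33% of the family in SCDM and 8.16% in FIBCL, and no p is given for this share either. The summed deposited TPM of the 8 genes was 170 to 177 in SCDM and 65.2 to 75.4 in FIBCL.

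**Figure D2:**
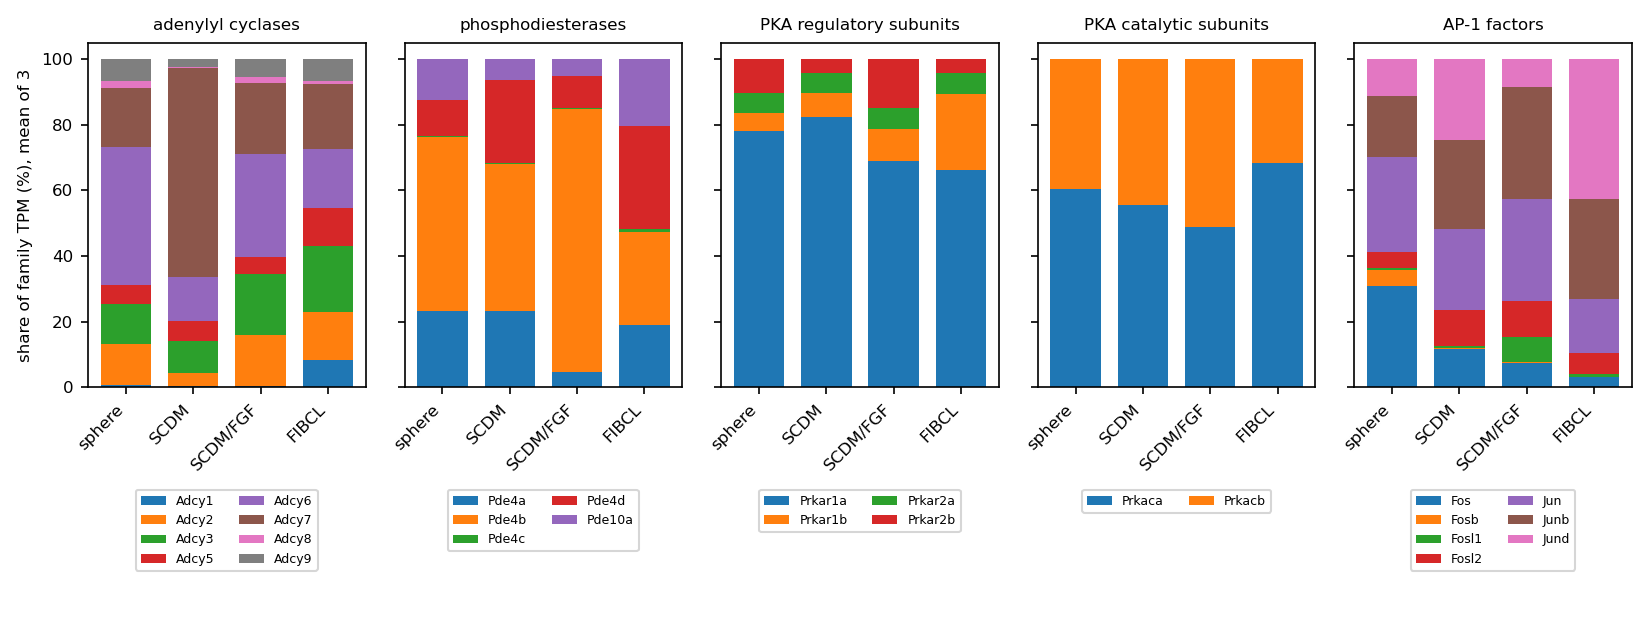
Share of each gene in the summed TPM of its family (y axis, percent, mean of 3 libraries) in the 4 groups, for adenylyl cyclases, phosphodiesterases, protein kinase A regulatory and catalytic subunits and AP-1 factors. Adcy7 fills 63.6% of the cyclases in SCDM, Pde4b fills 80.1% of the phosphodiesterases in SCDM/FGF, and Jund fills 42.5% of the AP-1 factors in FIBCL.

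Phosphodiesterases break cAMP down, and the PDE4 genes are themselves induced by cAMP in many cells. Pde4b was measured at 12.6, 12.2 and 13.5 in spheres, 11.8, 12.6 and 12.6 in SCDM, 85.0, 72.6 and 79.4 in SCDM/FGF, and 9.85, 9.94 and 8.74 in FIBCL. The SCDM/FGF libraries stood apart from the other 9, and the FIBCL libraries were the lowest. Pde4b rose by 2.58 ± 0.07 (limma adjusted p = 3.17e-10) in SCDM/FGF against SCDM and fell by 2.93 ± 0.07 (limma adjusted p = 2.33e-11) in FIBCL against SCDM/FGF. Against SCDM it fell by 0.35 ± 0.07 (limma adjusted p = 0.00112). Pde4b made up 80.1% ± 1.12 of the summed TPM of the 5 phosphodiesterases in SCDM/FGF, 44.8% ± 3.47 in SCDM and 28.3% ± 1.16 in FIBCL.

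Pde10a, a phosphodiesterase of cAMP and cGMP known from striatal neurons, was at 3.45, 2.82 and 2.84 in spheres, 1.79, 2.14 and 1.37 in SCDM, 5.73, 4.78 and 4.84 in SCDM/FGF, and 6.63, 6.66 and 7.23 in FIBCL. It was lowest in SCDM, and the FIBCL libraries lay above all others. Pde10a rose by 1.51 ± 0.12 (limma adjusted p = 3.61e-07) in FIBCL against SCDM, and SCDM/FGF exceeded SCDM by 1.15 ± 0.12 (limma adjusted p = 1.18e-05). The smaller difference between FIBCL and SCDM/FGF, 0.36 ± 0.12 (limma adjusted p = 0.0178), was lost without SCDM/FGF replicate 2 or 3 or FIBCL replicate 3, when the values were 0.32, 0.33 and 0.33, and with the TPM as deposited, at 0.09. Pde4d was at 2.47, 2.67 and 2.61 in spheres, 6.06, 9.56 and 5.76 in SCDM, 8.98, 9.65 and 10.1 in SCDM/FGF, and 10.5, 10.7 and 10.6 in FIBCL. It was lowest in the spheres, and the FIBCL libraries lay above those of SCDM without overlap. Pde4d rose in FIBCL against SCDM by 0.54 ± 0.14 (limma adjusted p = 0.00489), which was 0.18 and not called with the TPM as deposited. Pde4a stayed between 4.16 and 6.91 TPM in the 12 libraries and was not called against SCDM, and Pde4c was at most 0.355 TPM throughout.

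The protein kinase A subunits were all tested. Prkar1a, the common regulatory subunit, was measured at 183, 183 and 190.4 in spheres, 177, 175 and 177 in SCDM, 195, 195 and 197 in SCDM/FGF, and 185, 191 and 195 in FIBCL. The levels of all 12 libraries lay close together, and the rise in FIBCL against SCDM was 0.11 ± 0.03 (limma adjusted p = 0.00858), which became a fall by 0.29 with the TPM as deposited. Prkaca, the main catalytic subunit, was at 64.2, 66.9 and 65.4 in spheres, 53.3, 50.6 and 51.5 in SCDM, 61.4, 61.4 and 62.3 in SCDM/FGF, and 66.2, 63.0 and 63.5 in FIBCL. Prkaca was lower in SCDM than elsewhere, and it rose by 0.31 ± 0.04 (limma adjusted p = 1.50e-05) in FIBCL, which turned to −0.09, not called, with the TPM as deposited. The second catalytic subunit, Prkacb, was at 42.1, 39.6 and 47.9 in spheres, 41.8, 42.5 and 40.7 in SCDM, 65.6, 64.8 and 63.8 in SCDM/FGF, and 29.97, 30.4 and 28.6 in FIBCL. It was lowest in FIBCL and highest in SCDM/FGF, and it fell by 0.48 ± 0.06 (limma adjusted p = 2.48e-05) against SCDM and fell by 1.10 ± 0.06 (limma adjusted p = 1.84e-08) against SCDM/FGF.

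The regulatory subunits of restricted expression changed more. Prkar1b, the RIβ subunit found mostly in brain, was measured at 13.6, 13.0 and 13.5 in spheres, 17.5, 15.0 and 14.4 in SCDM, 27.8, 30.5 and 25.4 in SCDM/FGF, and 70.8, 65.0 and 64.8 in FIBCL. Each FIBCL library was above all others, and the SCDM/FGF libraries came next. Prkar1b rose by 2.03 ± 0.08 (limma adjusted p = 1.02e-09) against SCDM and by 1.23 ± 0.08 (limma adjusted p = 8.15e-08) against SCDM/FGF. Its ratio to Prkar1a within a library was 0.351 ± 0.027 (SD, n = 3) in FIBCL, 0.143 ± 0.014 in SCDM/FGF, 0.0886 ± 0.0091 in SCDM and 0.0722 ± 0.0022 in spheres. Prkar1b overlaps Gm15672 on the same strand, which was at 0.39 TPM on average in FIBCL.

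Prkar2b, the RIIβ subunit of neurons, fat and endocrine cells, was at 24.4, 24.4 and 25.7 in spheres, 8.76, 9.16 and 9.45 in SCDM, 42.0, 44.2 and 41.7 in SCDM/FGF, and 12.2, 12.0 and 11.9 in FIBCL. It was highest in SCDM/FGF and lowest in SCDM, FIBCL lay just above SCDM, and no ranges overlapped. SCDM/FGF exceeded SCDM by 2.11 ± 0.05 (limma adjusted p = 1.01e-10), and FIBCL was lower than SCDM/FGF by 1.74 ± 0.05 (limma adjusted p = 6.90e-11). The rise against SCDM was 0.37 ± 0.05 (limma adjusted p = 3.86e-05) and was no longer called with the TPM as deposited. Prkar2a, at 11.9 to 20.4 TPM, rose by 0.48 ± 0.13 (limma adjusted p = 0.00528) against SCDM, a call also lost with the TPM as deposited. Prkar1b thus took 23.2% ± 1.24 of the regulatory subunit TPM in FIBCL against 7.30% ± 0.74 in SCDM, while Prkar1a took 66.2% ± 1.6 against 82.4% ± 0.14 (exact permutation p = 0.1 for each, 0.118 adjusted).

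The Epac genes exchanged places. Rapgef3, which encodes Epac1, the widely expressed form, was measured at 18.2, 14.9 and 17.4 in spheres, 11.5, 9.98 and 9.13 in SCDM, 12.1, 10.2 and 7.61 in SCDM/FGF, and 3.28, 1.96 and 3.07 in FIBCL. The FIBCL libraries lay below all others. Rapgef3 fell by 1.58 ± 0.17 (limma adjusted p = 6.65e-06) against SCDM and fell by 1.54 ± 0.17 (limma adjusted p = 9.14e-06) against SCDM/FGF. Rapgef4, which encodes Epac2, the form of neurons and endocrine cells, was at 8.06, 8.07 and 8.47 in spheres, 1.92, 1.44 and 2.80 in SCDM, 2.89, 2.48 and 3.55 in SCDM/FGF, and 9.22, 12.1 and 10.4 in FIBCL. It was low in SCDM and SCDM/FGF and higher, without overlap, in spheres and FIBCL. Rapgef4 rose by 1.94 ± 0.16 (limma adjusted p = 5.60e-07) against SCDM and by 1.54 ± 0.16 (limma adjusted p = 4.40e-06) against SCDM/FGF, and its difference from the spheres, 0.32 ± 0.16 (limma adjusted p = 0.0919), was not called. The ratio of Rapgef4 to Rapgef3 within a library was 2.81 to 6.16 in FIBCL and at most 0.540 in the other 9 libraries.

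Markers of cell types moved with these results. The summed level of 10 neuron markers was 496 to 515 TPM in FIBCL, 203 to 221 in SCDM, 95.1 to 120 in SCDM/FGF and 164 to 181 in spheres. Gap43, which growing glia and other cells also express, made up most of the sum outside FIBCL. It was lowest in FIBCL, at 71.0 to 77.6 TPM, against 181 to 201 in SCDM, 77.7 to 99.2 in SCDM/FGF and 149 to 167 in spheres. Stmn2, Snap25, Syp and Syn1 were each at most 3.04 TPM in the 9 other libraries and at least 31.9 TPM in FIBCL, while Dcx was at most 0.086 TPM in all 12 libraries, and Elavl4 and Rbfox3 reached 0.837 and 1.46 TPM in FIBCL. The summed level of 8 glial markers was 467 to 494 in spheres, 161 to 196 in both control media and 17.1 to 22.8 in FIBCL. That of 8 mesenchymal markers was 7270 to 7590 in SCDM, 5340 to 5780 in SCDM/FGF, 2640 to 2680 in spheres and 131 to 144 in FIBCL. Among these, Twist1 went the other way, at 101, 113 and 116 in FIBCL and 31.8 to 53.7 elsewhere, and was most of the FIBCL sum. The macrophage markers Csf1r, Ptprc, C1qa, C1qb and C1qc were under 1 TPM in the FIBCL libraries, none of the 10 was at 0 in all of them, and Cd68, at 152 to 177, was most of their sum. The part of these shifts in the results on Adcy1, Prkar1b, Rapgef4 and the other members was not tested.

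CREB1 and its relatives carry the signal into the nucleus, and among these genes Crem stood out. Crem, which encodes both activators and the repressor ICER from an internal promoter, was measured at 12.1, 13.2 and 13.1 in spheres, 9.72, 14.3 and 9.80 in SCDM, 23.1, 15.5 and 20.9 in SCDM/FGF, and 68.5, 77.0 and 64.0 in FIBCL. The FIBCL libraries lay above all others, and those of SCDM overlapped the spheres. Crem rose by 2.55 ± 0.16 (limma adjusted p = 4.37e-08) against SCDM and by 1.78 ± 0.16 (limma adjusted p = 1.09e-06) against SCDM/FGF, and FIBCL exceeded the spheres by 2.36 ± 0.16 (limma adjusted p = 9.42e-08). The table gives a value per gene, so ICER and the activator forms cannot be told apart. Creb1 itself stayed between 11.7 and 17.4 TPM, and it fell by 0.41 ± 0.10 (limma adjusted p = 0.00278) in FIBCL against SCDM, while the difference from SCDM/FGF, −0.07 ± 0.10 (limma adjusted p = 0.56), was not called. The ratio of Crem to Creb1 was 5.65 ± 0.73 (SD, n = 3) in FIBCL, 1.52 ± 0.28 in SCDM/FGF, 0.673 ± 0.16 in SCDM and 0.895 ± 0.08 in spheres.

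Atf1, the closest relative of Creb1, was at 43.9, 36.3 and 43.6 in spheres, 31.8, 33.9 and 31.7 in SCDM, 28.4, 33.1 and 39.8 in SCDM/FGF, and 14.7, 15.4 and 14.6 in FIBCL. The FIBCL libraries were below all others. Atf1 fell by 1.07 ± 0.11 (limma adjusted p = 2.97e-06) against SCDM, fell by 1.12 ± 0.11 (limma adjusted p = 2.24e-06) against SCDM/FGF and fell by 1.41 ± 0.11 (limma adjusted p = 3.04e-07) against the spheres. Creb3, a membrane-bound factor of the secretory pathway that is not a direct target of protein kinase A signalling in the manner of Creb1, was at 38.5, 43.1 and 38.5 in spheres, 54.8, 45.6 and 48.8 in SCDM, 44.5, 39.7 and 43.6 in SCDM/FGF, and 51.2, 53.5 and 49.8 in FIBCL. Its ranges overlapped between SCDM and FIBCL, and the difference was 0.05 ± 0.07 (limma adjusted p = 0.531), which was not called, and which turned to −0.34 with the TPM as deposited. Among the CRTC coactivators, Crtc3 fell by 0.68 ± 0.08 (limma adjusted p = 1.75e-05) against SCDM, while Crtc1 and Crtc2 were not called, at −0.19 and −0.09. Creb3 overlaps Tln1 and Gba2 on the opposite strand, and strand was not stated for the counting.

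Of the other cAMP and CREB targets, Sik1, a kinase that is induced by cAMP and in turn restrains the CRTC coactivators, was measured at 10.7, 8.65 and 9.22 in spheres, 3.86, 4.11 and 3.85 in SCDM, 9.33, 8.49 and 5.76 in SCDM/FGF, and 10.7, 10.2 and 11.2 in FIBCL. It was lowest in SCDM, while spheres and FIBCL overlapped. Sik1 rose by 1.24 ± 0.14 (limma adjusted p = 7.91e-06) against SCDM. The difference from SCDM/FGF was 0.42 ± 0.14 (limma adjusted p = 0.0178), and it was 0.24 without SCDM/FGF replicate 3 and not called without FIBCL replicate 3, nor with the TPM as deposited, at 0.14. Ppargc1a, a coactivator of mitochondrial genes whose core match is printed above, was at 1.91, 1.54 and 1.80 in spheres, 0.448, 0.299 and 0.151 in SCDM, 2.33, 1.31 and 1.49 in SCDM/FGF, and 2.56, 2.88 and 2.97 in FIBCL. The SCDM libraries were at most 0.448 TPM and FIBCL was highest, without overlap. Ppargc1a rose by 1.55 ± 0.15 (limma adjusted p = 1.67e-06) in FIBCL and by 1.05 ± 0.15 (limma adjusted p = 1.23e-04) in SCDM/FGF, both against SCDM.

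Per1, a clock gene with a CRE core in its window, went the other way. Per1 was at 13.9, 13.0 and 14.0 in spheres, 10.2, 9.70 and 8.72 in SCDM, 16.1, 14.9 and 13.0 in SCDM/FGF, and 7.53, 7.46 and 8.00 in FIBCL. The FIBCL libraries lay below all others, and those of SCDM/FGF overlapped the spheres. Per1 fell by 0.28 ± 0.08 (limma adjusted p = 0.0111) against SCDM, a call lost under quantile normalization, and fell by 0.85 ± 0.08 (limma adjusted p = 2.87e-06) against SCDM/FGF. Pck1, a gluconeogenic target known from liver, was at most 0.099 TPM in any library.

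Fos and Fosb, the AP-1 genes most used as signs of recent activity, were highest in the spheres. Fos was measured at 331, 317 and 321 in spheres, 54.3, 48.2 and 46.7 in SCDM, 46.8, 36.3 and 38.1 in SCDM/FGF, and 17.7, 19.9 and 17.2 in FIBCL. The spheres stood apart from all other groups, and the FIBCL libraries were below those of both control media. Fos fell by 1.40 ± 0.09 (limma adjusted p = 7.03e-08) in FIBCL against SCDM, fell by 1.10 ± 0.09 (limma adjusted p = 6.28e-07) against SCDM/FGF and fell by 4.08 ± 0.09 (limma adjusted p = 1.14e-11) against the spheres. Fosb was at 57.0, 46.9 and 51.3 in spheres, 1.39, 0.981 and 1.06 in SCDM, 1.34, 1.25 and 1.10 in SCDM/FGF, and 0.0240, 0.234 and 0.197 in FIBCL. It was near 1 TPM in the control media and at most 0.234 TPM in FIBCL, and it fell by 5.52 ± 0.12 (limma adjusted p = 7.06e-12) against the spheres and fell by 0.90 ± 0.12 (limma adjusted p = 2.66e-05) against SCDM. At such low levels the size depends on the 1 added to the TPM. With 0.1 added instead, Fosb was at −2.415 against SCDM and −2.522 against SCDM/FGF (limma adjusted p = 3.44e-05 and 2.55e-05).

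Fosl1, which encodes Fra-1 and responds to ERK signalling, was at 8.11, 5.43 and 3.29 in spheres, 3.42, 2.36 and 3.94 in SCDM, 40.7, 41.0 and 39.4 in SCDM/FGF, and 5.98, 7.33 and 6.92 in FIBCL. The SCDM/FGF libraries stood far above all others. Fosl1 rose by 3.31 ± 0.23 (limma adjusted p = 3.93e-07) in SCDM/FGF against SCDM, and FIBCL was lower than SCDM/FGF by 2.42 ± 0.23 (limma adjusted p = 1.85e-06) and higher than SCDM by 0.88 ± 0.23 (limma adjusted p = 0.00446). Fosl2 ranged from 37.8 to 65.7 TPM and was lowest in FIBCL. Fosl1 overlaps Ccdc85b on the opposite strand, which was at 22.0 TPM on average in SCDM/FGF and 8.75 in SCDM.

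**Figure D3:**
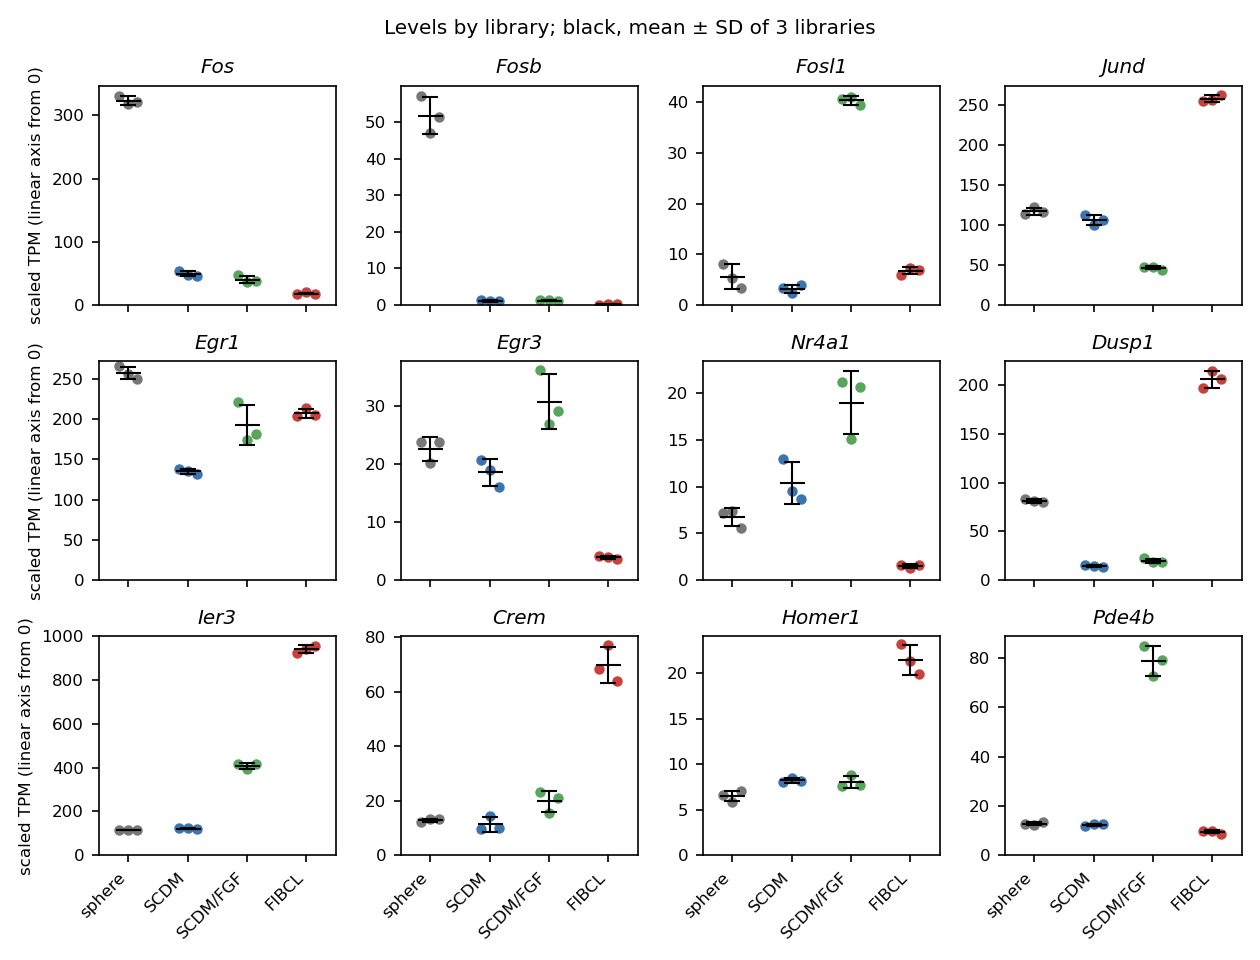
Scaled TPM (y axes, linear from 0) of 12 genes in each library (points, 3 per group), with the mean and SD in black. Fos and Fosb are highest in the sphere libraries, Fosl1 and Pde4b in SCDM/FGF, and Dusp1, Ier3, Crem, Homer1 and Jund in FIBCL, where Egr3 and Nr4a1 are lowest.

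The JUN genes, whose products pair with FOS proteins, differed among themselves. Jund was measured at 114, 122 and 116 in spheres, 112, 99.6 and 106 in SCDM, 47.0, 47.6 and 44.3 in SCDM/FGF, and 255, 255 and 262 in FIBCL. Every FIBCL library was above all others, and every SCDM/FGF library was below all others. Jund rose by 1.28 ± 0.05 (limma adjusted p = 7.11e-10) in FIBCL against SCDM and by 2.45 ± 0.05 (limma adjusted p = 4.30e-12) against SCDM/FGF, and SCDM/FGF was lower than SCDM by 1.17 ± 0.05 (limma adjusted p = 6.11e-09). Jun was at 305, 302 and 307 in spheres, 105, 109 and 102 in SCDM, 172, 168 and 162 in SCDM/FGF, and 97.3, 101 and 101 in FIBCL. It was highest in the spheres, and FIBCL lay just below SCDM, at −0.08 ± 0.04 (limma adjusted p = 0.0743), which was not called.

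Junb was at 193, 199 and 188 in spheres, 117, 116 and 112 in SCDM, 198, 171 and 184 in SCDM/FGF, and 183, 184 and 186 in FIBCL. It was lower in SCDM than in the other groups, and SCDM/FGF and FIBCL overlapped. Junb rose by 0.68 ± 0.05 (limma adjusted p = 1.63e-07) in FIBCL against SCDM, and its difference from SCDM/FGF, 0.00 ± 0.05 (limma adjusted p = 0.946), was not called and turned to −0.31, a call, with the TPM as deposited. Jun and Jund overlap Junos and Gm11175 on the opposite strand, at 3.5 TPM or less on average, and Junb overlaps Prdx2, which was at 124 TPM on average in FIBCL and 204 in SCDM. Within the summed TPM of the 7 AP-1 genes, Jund took 42.5% ± 0.36 (SD, n = 3) in FIBCL, 24.8% ± 1.26 in SCDM, 8.61% ± 0.47 in SCDM/FGF and 11.2% ± 0.49 in spheres. Fos took 3.02% ± 0.24, 11.7% ± 0.72, 7.47% ± 0.63 and 30.9% ± 0.39 in the same order, so the family in FIBCL was mostly Jund and Junb.

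The EGR and NR4A genes encode zinc finger factors and orphan nuclear receptors of the early response. Egr1 was measured at 265, 256 and 250.0 in spheres, 138, 136 and 131 in SCDM, 221, 174 and 182 in SCDM/FGF, and 203, 213 and 205 in FIBCL. It was highest in the spheres and lowest in SCDM, and FIBCL overlapped SCDM/FGF. Egr1 rose by 0.62 ± 0.07 (limma adjusted p = 1.28e-05) in FIBCL against SCDM, and its difference from SCDM/FGF, 0.11 ± 0.07 (limma adjusted p = 0.184), was not called. Egr3 was at 23.7, 20.1 and 23.7 in spheres, 20.7, 19.0 and 16.1 in SCDM, 36.1, 27.0 and 29.2 in SCDM/FGF, and 4.16, 3.98 and 3.71 in FIBCL. The FIBCL libraries were at most 4.16 TPM and all others at least 16.1 TPM. Egr3 fell by 1.98 ± 0.12 (limma adjusted p = 3.18e-08) against SCDM and fell by 2.67 ± 0.12 (limma adjusted p = 2.52e-09) against SCDM/FGF, so this pair of EGR genes differed in direction against SCDM.

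Nr4a1, a direct CREB target with 2 core matches shown above, was at 7.24, 7.45 and 5.60 in spheres, 12.9, 9.55 and 8.70 in SCDM, 21.2, 15.1 and 20.7 in SCDM/FGF, and 1.60, 1.28 and 1.62 in FIBCL. The FIBCL libraries were at most 1.62 TPM, and those of SCDM/FGF were the highest. Nr4a1 fell by 2.17 ± 0.17 (limma adjusted p = 2.70e-07) against SCDM, fell by 2.99 ± 0.17 (limma adjusted p = 1.78e-08) against SCDM/FGF and fell by 1.63 ± 0.17 (limma adjusted p = 3.64e-06) against the spheres. Nr4a2 ranged from 2.02 to 4.13 TPM, and its difference between FIBCL and SCDM, 0.03 ± 0.11 (limma adjusted p = 0.792), was not called. Among the genes under the limit, Npas4 was highest in the spheres, at 0.534, 0.481 and 0.638, and at most 0.072 TPM in FIBCL. Nr4a3 was between 0.28 and 0.74 TPM in all libraries. Egr4 was at 0.861, 0.874 and 0.920 TPM in FIBCL and at most 0.076 in the other 9 libraries, a level at which it was not tested.

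**Figure D4:**
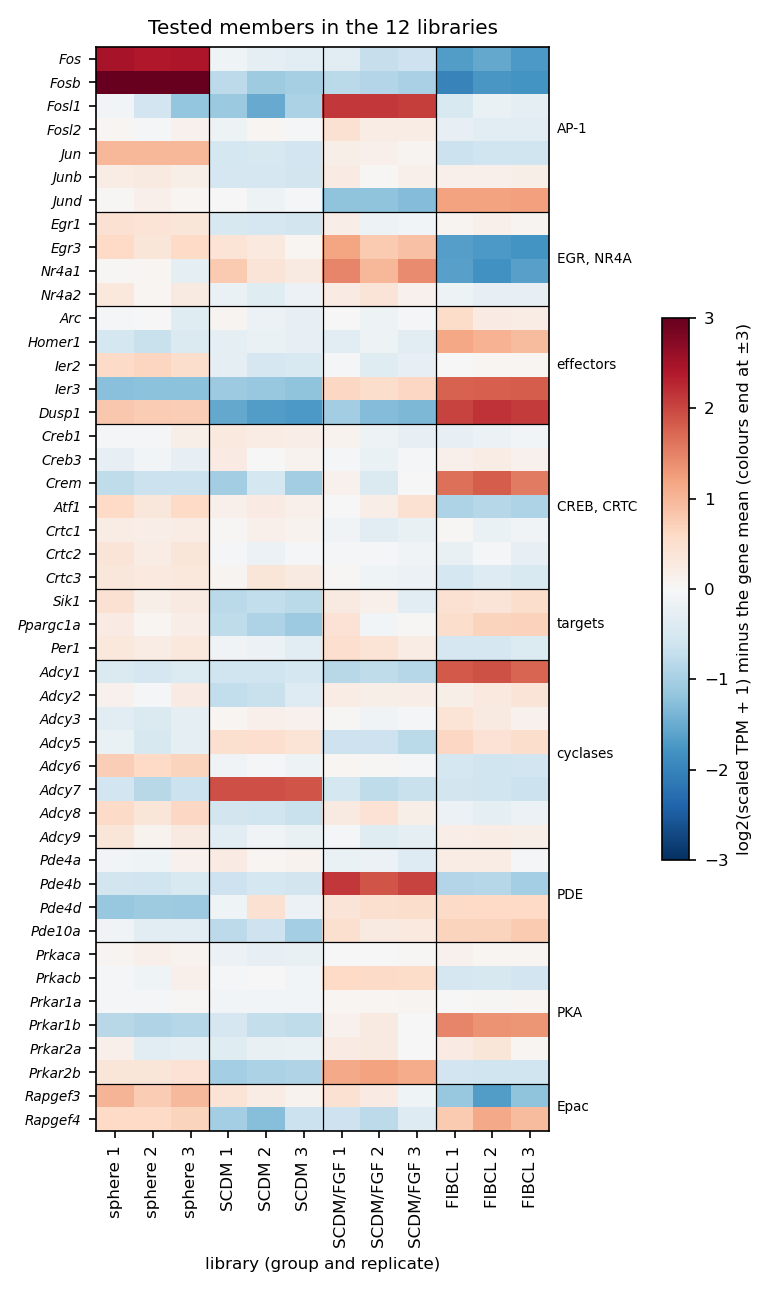
Log2(scaled TPM + 1) of the 46 tested genes (rows, grouped by role) in the 12 libraries (columns), less each gene's mean over the libraries; red is higher and blue lower, and colours end at −3 and 3. Libraries of a group look alike, Fos and Fosb are red in the spheres, and Dusp1, Ier3, Crem, Adcy1 and Prkar1b are red in FIBCL.

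The 5 effector and feedback genes rose in FIBCL against both control media, although with the TPM as deposited Arc and Ier2 were not called against either, and Ier2 was at −0.05 against SCDM/FGF. Dusp1, a phosphatase that switches off MAP kinases, was measured at 83.5, 80.8 and 79.8 in spheres, 15.9, 14.1 and 13.8 in SCDM, 22.5, 18.8 and 18.1 in SCDM/FGF, and 198, 215 and 206 in FIBCL. The FIBCL libraries were the highest, the spheres followed, and no range of these groups overlapped another. Dusp1 rose by 3.73 ± 0.08 (limma adjusted p = 5.80e-12) against SCDM, by 3.32 ± 0.08 (limma adjusted p = 1.40e-11) against SCDM/FGF and by 1.33 ± 0.08 (limma adjusted p = 2.67e-08) against the spheres, while SCDM was lower than the spheres by 2.40 ± 0.08 (limma adjusted p = 9.77e-10). Its window holds the full CRE printed above. The ratio of Dusp1 to Fos within a library was 11.3 ± 0.62 (SD, n = 3) in FIBCL and 0.249 to 0.519 elsewhere. Dusp1 overlaps Ergic1 on the opposite strand, which was at 84.4 to 102 TPM on average in the 4 groups.

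Ier3, an early gene of growth factor and stress signalling, was at 113, 114 and 114 in spheres, 126, 122 and 117 in SCDM, 415, 393 and 416 in SCDM/FGF, and 922, 942 and 957 in FIBCL. The order was FIBCL, then SCDM/FGF, then SCDM and the spheres, with no overlap between the groups. Ier3 rose by 2.94 ± 0.04 (limma adjusted p = 1.24e-13) in FIBCL against SCDM and by 1.20 ± 0.04 (limma adjusted p = 1.08e-10) against SCDM/FGF, and SCDM/FGF exceeded SCDM by 1.74 ± 0.04 (limma adjusted p = 5.15e-11). Ier2 was at 137, 145 and 134 in spheres, 75.9, 64.4 and 66.3 in SCDM, 88.9, 71.6 and 76.9 in SCDM/FGF, and 93.1, 95.4 and 96.0 in FIBCL. It was highest in the spheres, and it rose by 0.46 ± 0.08 (limma adjusted p = 2.57e-04) in FIBCL against SCDM, which was not called with the TPM as deposited. The summed level of 8 genes on a heat shock and dissociation list was 1870 to 1940 in FIBCL and 1310 to 1540 in the other groups. Hspa8, at 992 to 1057 TPM in FIBCL, was most of that sum. Against SCDM 6 of the 8 rose and 2 fell, where 32.7% and 39.0% of all genes did. Dnajb1 and Hsph1 were lowest in FIBCL, at 19.4 to 20.8 and 34.6 to 41.0 TPM. In the other groups they were at 23.2 to 27.6 and 44.5 to 52.4 TPM. The part of these genes in the results was not tested.

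Homer1, a scaffold of the postsynaptic density whose short form Homer1a is an early gene, was at 6.56, 5.87 and 7.01 in spheres, 7.98, 8.52 and 8.14 in SCDM, 7.56, 8.84 and 7.71 in SCDM/FGF, and 23.2, 21.3 and 19.9 in FIBCL. The 9 other libraries lay between 5.87 and 8.84 TPM and those of FIBCL at 19.9 TPM or more. Homer1 rose by 1.28 ± 0.09 (limma adjusted p = 8.89e-08) against SCDM and by 1.31 ± 0.09 (limma adjusted p = 7.81e-08) against SCDM/FGF, and the long and short forms cannot be told apart in a value per gene. Arc, a synaptic early gene, was at 2.30, 2.40 and 1.66 in spheres, 2.62, 2.03 and 1.90 in SCDM, 2.47, 2.10 and 2.29 in SCDM/FGF, and 4.02, 3.10 and 3.05 in FIBCL. It rose by 0.46 ± 0.13 (limma adjusted p = 0.00896) against SCDM, and its call against SCDM/FGF, 0.41 ± 0.13 (limma adjusted p = 0.0169), was lost without SCDM/FGF replicate 2 or FIBCL replicate 1, at 0.37 and 0.32.

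SCDM/FGF differed from SCDM in its added bFGF, and 25 of the 46 genes rose and 10 fell against SCDM, where 21.8% and 21.3% of all genes did and 43.1% differed. At least 2-fold, 9 changed (19.6% against 9.77%). Fosl1, Pde4b, Prkar2b, Ier3, Pde10a and Ppargc1a were the 6 that rose, where 5.73% of all genes did, and Adcy7, Jund and Adcy5 the 3 that fell, where 4.04% did, with the values given above. Egr1 rose by 0.50 ± 0.07 (limma adjusted p = 1.79e-04), Egr3 by 0.69 ± 0.12 (limma adjusted p = 5.86e-04) and Nr4a1 by 0.81 ± 0.17 (limma adjusted p = 0.00195). Fos fell by 0.30 ± 0.09 (limma adjusted p = 0.0204), with ranges that overlapped, and the call was lost without SCDM replicate 1 or SCDM/FGF replicate 2 or 3, at −0.24, −0.23 and −0.26.

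Against the spheres, SCDM had 8 genes that rose and 24 that fell, where 24.5% and 25.8% of all genes did and 50.3% differed. At least 2-fold, 12 changed (26.1% against 12.4%), of which 2 rose and 10 fell, where 6.94% and 5.46% of all genes did. The median change was −0.30, against −0.01 over all genes. Fos, Fosb, Jun, Dusp1, Rapgef4, Prkar2b, Adcy8, Sik1, Ppargc1a and Ier2 fell at least 2-fold, and Adcy7 and Pde4d rose. SCDM/FGF had 14 that rose and 17 that fell against the spheres, where 25.0% and 25.4% of all genes did and 50.4% differed. At least 2-fold, 6 rose and 5 fell, where 7.39% and 4.73% of all genes did (23.9% against 12.1% in either direction), and with the TPM as deposited 5 rose and 7 fell. With the TPM as deposited the splits of all calls were 5 and 28 in SCDM, and 9 and 24 in SCDM/FGF. FIBCL had 15 that rose and 20 that fell against the spheres, where 32.9% and 38.7% of all genes did and 71.6% differed, and the split was 10 and 28 with the TPM as deposited. At least 2-fold, 8 rose and 8 fell, where 12.5% and 15.5% of all genes did (34.8% against 28.1% in either direction), and with the TPM as deposited 6 rose and 15 fell. The spheres entered each of these comparisons.

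Genes of the same pathways outside the 51 were counted from a pair of lists. Of 51 other cAMP pathway genes, 49 were tested, and in FIBCL against SCDM 22 rose and 17 fell, with a median change of 0.08. Over all genes these shares were 32.7% and 39.0%, with a median of −0.07. Against SCDM/FGF, 21 of the list rose and 21 fell, with a median of −0.09, where 32.5% and 38.2% of all genes did. Hcn2, a channel gated directly by cAMP, rose against SCDM by 3.59 ± 0.09 (limma adjusted p = 3.25e-11), and Gnai1, an inhibitory G protein, by 2.32 ± 0.12 (limma adjusted p = 1.28e-08). Gnal, the stimulatory G protein of olfactory and striatal neurons, was at 12.7, 12.5 and 11.1 TPM in FIBCL and at most 0.874 TPM elsewhere, and it could be tested only through FIBCL, so no p is given. Creb3l1, a membrane-bound factor of collagen-secreting cells, fell by 2.34 ± 0.07 (limma adjusted p = 9.66e-11), and the calcium-dependent phosphodiesterases Pde1a and Pde1b fell by 2.29 ± 0.14 (limma adjusted p = 4.68e-08) and fell by 2.10 ± 0.09 (limma adjusted p = 1.57e-09). Gnas, the ubiquitous stimulatory G protein, fell by 0.54 ± 0.04 (limma adjusted p = 4.83e-07). Of the inhibitors of protein kinase A, Pkia rose by 0.58 ± 0.09 (limma adjusted p = 1.21e-04) and Pkib fell by 1.19 ± 0.37 (limma adjusted p = 0.0127). Pkig, the most expressed of them, was at 33.7 to 37.1 TPM in FIBCL and 73.5 to 78.7 in SCDM. It was at 95.5 to 111 in SCDM/FGF and 134 to 148 in spheres.

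Of 42 other immediate early and activity-induced genes, 38 were tested, 22 rose and 11 fell in FIBCL against SCDM, and the median change was 0.60, where 32.7% and 39.0% of all genes rose and fell. Vgf, a neuropeptide precursor and CREB target, was at 575, 496 and 514 TPM in FIBCL and at most 1.49 in the other 9 libraries, and it rose by 8.47 ± 0.10 (limma adjusted p = 6.70e-14). Inhba, an activin subunit, rose by 5.00 ± 0.13 (limma adjusted p = 3.41e-11), Dusp2, another MAP kinase phosphatase, by 4.45 ± 0.18 (limma adjusted p = 1.34e-09), Scg2, a dense-core vesicle protein, by 1.98 ± 0.12 (limma adjusted p = 4.10e-08) and Bdnf by 1.01 ± 0.10 (limma adjusted p = 2.56e-06). Penk, the enkephalin precursor and a classic cAMP target, fell by 6.59 ± 0.29 (limma adjusted p = 2.64e-09). Its level was 585 to 745 TPM in SCDM, 19.6 to 52.2 in SCDM/FGF, 5.1 to 6.0 in FIBCL and 1.5 to 2.5 in spheres. Klf2 fell by 2.69 ± 0.15 (limma adjusted p = 1.65e-08) and Gadd45b fell by 1.26 ± 0.08 (limma adjusted p = 7.18e-08). Against SCDM/FGF, 13 genes of this list rose and 16 fell, with a median of −0.03. Bdnf then fell, by 1.60 ± 0.10 (limma adjusted p = 4.66e-08), and averaged 15.4 TPM in SCDM/FGF and 4.38 TPM in FIBCL, and Gadd45b was not called, at 0.19.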

How the data were processed

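The members and the lists of genes were chosen with earlier results of these data known, and so were the tests. Poly(A) RNA-seq of 12 mouse libraries was used, grouped by the sample labels. The authors used SeqPrep and Sickle for trimming, TopHat for alignment and RSEM for quantification, and the submitters' processing notes also name Cufflinks. The genome build and the strand setting are not given in the sources used here. The deposited values are TPM with 2 decimals, which keep no read numbers, so the depth is unknown. Each library had 21625 to 22281 genes above 0, and the listed TPM summed to 899295 to 911076 in FIBCL and 982067 to 994845 in the other groups.

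A gene was tested when it reached 1 TPM in 3 or more of the 12 libraries. Adcy1 passed through FIBCL libraries alone. Scaling used a trimmed mean (30% off each end) of log2 ratios to the library average, over 8434 genes of 5 TPM or more everywhere, with mean offsets of −0.318 in FIBCL, 0.084 in SCDM, −0.002 in SCDM/FGF and 0.228 in spheres. Values of log2(scaled TPM + 1) were fitted in limma 3.58.1 (R 4.3.3) with a variance trend, in 1 model of 4 groups and 6 comparisons, without covariates, with Benjamini-Hochberg adjustment. The pseudocount understates changes of low genes. Because the values are TPM, no count model was used.

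Family shares were compared by two-sided exact permutation tests, which cannot give a p below 0.1 with 3 libraries against 3. Levels in each library are given for genes that changed at least 2-fold in FIBCL against either control medium or in SCDM/FGF against SCDM, and for the 2 genes of each role with the highest mean. From the lists, the 3 highest and 3 lowest changes against SCDM are named, with Gnas, Pkia, Pkib, Bdnf and Scg2. Pkig was added as the most expressed of the listed inhibitors of protein kinase A. Arc, Fosb, Creb1, Egr4, Npas4 and the further genes given in brief were named so that each member is accounted for. Gene overlaps come from GENCODE M21 (GRCm38), and promoter windows from RefSeq (GRCm38.p6). For 35 of the 41 matched genes, the 30 bases after a start site were found in a GENCODE transcript of the gene. Alternatives were other scalings, limits, pseudocounts and variance models, a model of only the groups compared, a block for the replicate number, and each library left out.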

Additional observations from a re-analysis of the deposited data

Results flagged for a closer look

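The groups hold 3 libraries each, too few for a test of outlying samples. In 4 cases a gene moved from the spheres by at least 2-fold in opposite directions in 2 media. The difference is taken from the direct comparison of the media in limma with Benjamini-Hochberg adjustment. That comparison uses the same libraries, and cases picked in this way had to differ between the media. Its adjusted p therefore describes the difference and is no separate test of it.

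Dusp1 was higher than the spheres by 1.33 in FIBCL and lower, at −2.40, in SCDM and at −1.99 in SCDM/FGF. The differences were 3.73 from SCDM (adjusted p = 5.80e-12) and 3.32 from SCDM/FGF (adjusted p = 1.40e-11), and the libraries of all these groups did not overlap. Jund was higher than the spheres by 1.13 in FIBCL and lower, at −1.32, in SCDM/FGF, a difference of 2.45 (adjusted p = 4.30e-12). Nr4a1 was lower than the spheres, at −1.63, in FIBCL and higher by 1.36 in SCDM/FGF, a difference of −2.99 (adjusted p = 1.78e-08).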

How the results depend on the processing

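With the limit of 2-fold removed, the members called were 38 in FIBCL against SCDM, 35 against SCDM/FGF and 35 against spheres, 32 in SCDM and 31 in SCDM/FGF against spheres, and 35 in SCDM/FGF against SCDM. With a limit of 1.5 on the log2 scale they were 11 in FIBCL against SCDM/FGF, 6 in SCDM and 7 in SCDM/FGF against spheres, and 5 in SCDM/FGF against SCDM. The shares of all genes at that limit are not given here. The other alternatives left these counts, taken over both directions, within 1.5 times. With the TPM as deposited, the genes that fell at least 2-fold in FIBCL against spheres nevertheless went from 8 to 15. The median change of all genes in that comparison went from −0.058 to −0.515, and the share of all genes that fell in that setting is not given here. In some alternatives Homer1, Jund and Sik1 fell under 2-fold against SCDM, and Adcy5, Atf1, Fos, Ier3 and Prkar1b against SCDM/FGF, with adjusted p up to 0.000176 and 0.000539 over the 22 alternatives.

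Of 6072 recomputed values of single genes, 5846 kept their direction and call, 144 lost a call, 63 gained one and 19 reversed, and the cause was not tested. With the TPM as deposited, 18 reversed. In FIBCL against SCDM they were Prkaca (−0.089), Prkar1a (−0.29), Adcy5 (−0.30), Creb3 (−0.34) and Pde4a (−0.34). Against SCDM/FGF they were Prkaca (−0.25), Creb3 (−0.04), Adcy7 (−0.24), Junb (−0.31) and Ier2 (−0.048). Against spheres they were Prkar1a (−0.50), Adcy2 (−0.32), Creb3 (−0.18), Adcy7 (−0.44), Pde4a (−0.30) and Prkar2a (−0.14) in FIBCL, Ier3 (−0.048) in SCDM and Prkar1a (−0.15) in SCDM/FGF. Under quantile normalization Prkar1a reversed in SCDM/FGF against spheres (−0.11).

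The replicate numbers did not pair the libraries, since deviations of libraries with the same number correlated between −0.121 and 0.098 across genes. With the replicate block, the counts of genes changed at least 2-fold were 17, 18, 16, 12, 11 and 9 in FIBCL against SCDM, SCDM/FGF and spheres, SCDM and SCDM/FGF against spheres, and SCDM/FGF against SCDM, as without it.

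Depth is unknown, and no limit of detection was computed. Genes under 1 TPM, such as Egr4, Npas4 and Pck1, were not tested.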
